A study of Mus musculus with 32 samples.

Results

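Integrin genes listed for the muscle fibre, 9 of the 54838 genes in the deposited count table, were followed in whole *tibialis anterior* (TA) muscle of *Mtm1* knockout (KO) mice. They were taken by symbol: the integrin α chains *Itga1*, *Itga3*, *Itga5*, *Itga6*, *Itga7* and *Itgav*, the β chains *Itgb1* and *Itgb5*, and *Itgb1bp2*, which encodes melusin, a muscle protein that binds the cytoplasmic tail of the β1 chain. All 9 matched 1 Ensembl gene each and passed the filter on low counts in each comparison. The 32 libraries came from mice of strain background C57BL6/J, and each mouse gave 1 library. At postnatal days 1 (P1), 14 (P14), 21 (P21) and 35 (P35) there were 4 wild-type (WT) and 4 KO mice. Per the study's methods, the KO allele is a deletion made in exon 4 of *Mtm1*, an X-linked gene for the phosphoinositide phosphatase myotubularin. No treatment was given. The line had been made on another strain and was bred onto this one. The labels name the tissue only as skeletal muscle, and the study's methods name the TA.

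Integrins are receptors made of 1 α and 1 β chain that span the cell membrane. The α chain largely sets which matrix protein is bound: α7, α6 and α3 bind laminins, α1 binds collagen and laminin, α5 binds fibronectin, and αv binds vitronectin, fibronectin and other RGD-bearing proteins. Most of these α chains pair with β1, whereas αv also pairs with β5. In muscle fibres α7β1 sits at costameres, the rib-like sites that tie the sarcomeres to the membrane and the basal lamina, and at muscle-tendon and nerve-muscle junctions. Inside the cell, talin, kindlin, integrin-linked kinase and their partners join the β tail to actin. Vessels, fibroblasts, satellite cells and leukocytes of the muscle carry integrins too, and a library of whole muscle sums over all of them.

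The labels were first checked with the targeted gene. *Mtm1* was measured in CPM (counts per 1000000 counts of a library scaled by TMM, the trimmed mean of M-values) at 5.26 to 6.02 CPM in WT and 2.32 to 3.91 CPM in KO at P1, and at 18.9 to 24.9 CPM in WT and 2.64 to 4.51 CPM in KO from P14 on, so the genotypes did not overlap at any age. Counts summed to 49321035 to 85631408 per library. The 6 myofibre markers (*Acta1*, *Ckm*, *Ttn*, *Tnnt3*, *Myh4* and *Mb*) summed to 15450 CPM or more in every library and none was at 0. Keratinocyte markers summed to 1560 to 6014 CPM at P1 and to at most 35.7 CPM later, and their part in the P1 levels of the integrin genes was not tested.

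The coding stretch around the start of the cytoplasmic tail is shown for the 6 α chains, since it is the part all of them share, next to the membrane. It was read from the GENCODE M21 transcripts of GRCm38, spliced, 5′ to 3′ on the sense strand, from the longest complete coding transcript that held the motif. Capitals mark the 15 bases of the membrane-proximal motif, searched as codons in frame:
Itga7: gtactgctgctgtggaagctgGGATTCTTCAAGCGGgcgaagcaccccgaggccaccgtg
Itga6: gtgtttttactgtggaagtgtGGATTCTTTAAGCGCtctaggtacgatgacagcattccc
Itga3: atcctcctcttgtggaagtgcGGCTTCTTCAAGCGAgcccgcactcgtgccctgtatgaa
Itga1: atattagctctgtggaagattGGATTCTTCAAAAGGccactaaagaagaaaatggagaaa
Itga5: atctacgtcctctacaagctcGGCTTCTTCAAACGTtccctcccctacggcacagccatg
Itgav: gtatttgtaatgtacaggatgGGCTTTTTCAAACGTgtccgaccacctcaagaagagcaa

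The motif occurred 1 time in frame in each of these transcripts. Of its 15 bases, 14 were the same in *Itga5* and *Itgav*, the pair most alike, 13 in *Itga6* and *Itga7*, and 10 in *Itga6* and *Itgav*, the pair least alike. The 3′ ends differed more. After the motif, 24 coding bases remained in *Itga1*, 63 in *Itga5*, 75 in *Itgav*, 90 in *Itga3*, 141 in *Itga6* and 210 in *Itga7*. The longest coding transcript of *Itga3* did not hold the motif, and the transcript shown is the next in length. Of the complete coding transcripts, 2 of 3 held the motif in *Itga3*, 1 of 2 in *Itga5* and 1 of 1 in *Itga1*. In *Itga6*, *Itga7* and *Itgav* 2 of 2 held it. The lengths after the motif hold for the transcripts shown, and the tails of the others were not compared. The deposited counts are per gene and do not separate transcripts.

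The genes lie on 8 chromosomes of GRCm38. *Itga7* spans chr10:128933818-128958282 on the plus strand, *Itgb1* chr8:128685654-128733200 on the plus strand, *Itgav* chr2:83724397-83806916 on the plus strand and *Itga6* chr2:71745616-71858416 on the plus strand. *Itga1* spans chr13:114953096-115101964, *Itga3* chr11:95044474-95076801 and *Itga5* chr15:103344286-103366763, all on the minus strand. *Itgb5* spans chr16:33829665-33949338 and *Itgb1bp2* chrX:101449088-101453541, both on the plus strand. The span of *Itga1* holds *Pelo*, on the same strand, with a mean of 684.9 counts per library against 3904.3 for *Itga1*, and the counts of *Itga1* are to that extent uncertain. Annotated genes overlapping the other α chains averaged at most 6.9 counts.

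Levels of different genes were compared per length, as CPM per kb of exon (all annotated exons joined). In WT muscle at P35, *Itgb1bp2* (124 ± 3.82 CPM per kb, mean ± SD, *n*=4 here and below) and *Itgb1* (104 ± 10.8) stood far above the rest. *Itgb5* (20.7 ± 1.74), *Itga7* (14.9 ± 2.86), *Itga6* (8.74 ± 1.60), *Itgav* (6.17 ± 0.509), *Itga5* (4.08 ± 0.806), *Itga1* (3.63 ± 0.659) and *Itga3* (1.64 ± 0.164) followed in that order. Between neighbours in this order, *Itga6* and *Itgav* overlapped between libraries, as did *Itga5* and *Itga1*, and all other neighbours were apart. In KO muscle at P35, *Itgb1* (150 ± 10.5 CPM per kb) stood above *Itgb1bp2* (116 ± 14.9), and *Itga7* (24.5 ± 2.09) above *Itgb5* (17.6 ± 2.66). Length per coding sequence or per longest transcript changed the middle of these orders: *Itga7* was then above *Itgb5* in WT at P35 too.

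**Figure D1:**
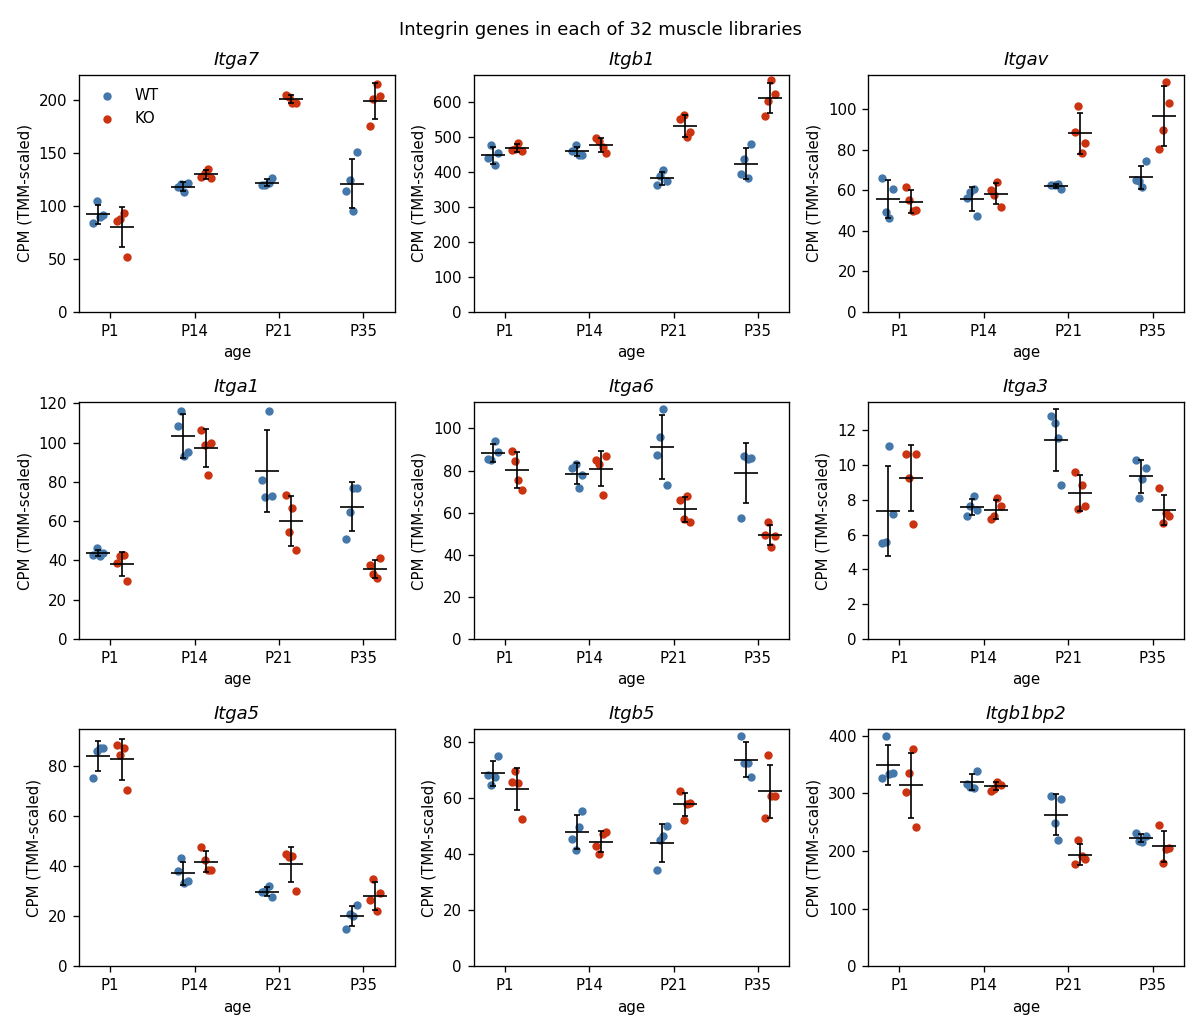
CPM (TMM-scaled) of the 9 genes in each of the 32 libraries, by age, with WT in blue and KO in red; points are mice, and black bars give the mean ± SD of 4 mice. WT and KO points overlap for most genes at P1 and P14, and at P21 and P35 they are apart for *Itga7*, *Itgb1* and *Itgav* (KO above) and for *Itga6* (KO below).

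At P1 and P14 KO and WT levels were close. None of the 9 genes passed the test of KO against WT (edgeR's quasi-likelihood test, adjusted *P*-value under 0.01 over all genes tested) at P1, where 0.0442% of all 18100 genes tested passed, or at P14, where 0.0381% of 15728 passed. At an unadjusted *P*-value under 0.05, 0 of the 9 were called at P1 (10.9% of all genes) and 1 at P14 (6.82%), and DESeq2 called 0 of 9 at both ages. Log2 fold changes ran from -0.19 (*Itga7*) to 0.35 (*Itga3*) at P1 and from -0.11 (*Itgb5*) to 0.17 (*Itga5*) at P14. The median over the 9 genes was -0.11 at P1 and 0.04 at P14, against 0.01 and 3e-04 over all genes tested. The gene under 0.05 at P14 was *Itga7*, which stood in the 4 WT libraries at 117, 121, 113 and 121 CPM and in the 4 KO libraries at 127, 131, 135 and 126 CPM. These do not overlap, as held for 1 of the 9 genes at P14 and 4.84% of all genes. KO over WT gave 0.13 ± 0.0518 (log2, SE), and adjustment over all genes left a *P*-value of 0.677.

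The other genes overlapped between genotypes at both ages. At P1, *Itgb1* ran from 420 to 476 CPM in WT and 459 to 484 CPM in KO, *Itgb1bp2* from 326 to 400 CPM and 242 to 377 CPM, and *Itgb5* from 64.5 to 74.8 CPM and 52.4 to 69.6 CPM. Among the α chains at P1, *Itga5* ran from 75.2 to 87.3 CPM in WT and 70.4 to 88.4 CPM in KO, *Itga7* from 83.4 to 104 CPM and 52.0 to 93.5 CPM, and *Itga6* from 84.8 to 94.2 CPM and 70.9 to 89.5 CPM. KO P1 replicate 4 was the lowest KO library for *Itga7*, *Itga1*, *Itga5*, *Itga6*, *Itgb5*, *Itgb1* and *Itgb1bp2*. At P14, *Itgb1* ran from 449 to 478 CPM in WT and 453 to 499 CPM in KO, and *Itga1*, at its highest median of the 4 ages, from 93.1 to 116 CPM and 83.6 to 106 CPM.

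At P21 the mRNA of the laminin receptor chain *Itga7* and of its partner chain *Itgb1* was higher in whole KO muscle. *Itga7*, *Itgb1* and *Itgav* passed the test, all 3 higher in KO, and 0 of the 9 passed as lower, where 8.13% of 15179 genes passed (4.74% higher and 3.39% lower). *Itga7* stood in the 4 WT libraries at 120, 119, 122 and 126 CPM and in the 4 KO libraries at 204, 203, 197 and 196 CPM. Every KO library was far above every WT library, and the spread within each genotype was small. This is a log2 fold change of 0.73 ± 0.0534 (SE), or 1.66-fold, with 8.79e-05 as its adjusted *P*-value, and *Itga7* was the only 1 of the 9 to be a DEG, that is to pass with a fold over 1.5 (4.67% of all genes were DEGs).

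*Itgb1*, for the β chain shared by most of these receptors, stood in the 4 WT libraries at 362, 389, 405 and 375 CPM and in the 4 KO libraries at 551, 564, 499 and 514 CPM. The groups did not overlap (log2 fold change 0.49 ± 0.072 SE, adjusted *P*-value 0.00226). In WT the mean of *Itgb1* was 459 CPM at P14 and 383 CPM at P21. That step did not pass by edgeR (log2 fold change -0.27, adjusted *P*-value 0.0222), and DESeq2 called it (adjusted *P*-value 0.000114). *Itgav* stood in the 4 WT libraries at 62.3, 62.7, 63.0 and 60.6 CPM and in the 4 KO libraries at 88.8, 102, 78.1 and 83.3 CPM. WT libraries lay within a few CPM of each other and all KO libraries were above them. *Itgav* thus differed by 0.51 ± 0.0818 (log2, SE) at an adjusted *P*-value of 0.00311, and without WT P21 replicate 1 or replicate 2 its adjusted *P*-value was 0.0107 and 0.0104.

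The other 6 genes did not pass at P21 by edgeR. DESeq2 called *Itga6* (adjusted *P*-value 0.00022) and *Itgb1bp2* (0.000917) lower and *Itga5* (0.00772) higher in KO at that age. *Itga6*, a laminin receptor chain, stood in the 4 WT libraries at 87.5, 95.8, 109 and 73.0 CPM and in the 4 KO libraries at 65.9, 57.0, 67.7 and 55.6 CPM. The groups did not overlap (log2 fold change -0.56 ± 0.125 SE, adjusted *P*-value 0.0131). *Itgb1bp2* stood in the 4 WT libraries at 295, 249, 220 and 290 CPM and in the 4 KO libraries at 177, 219, 192 and 187 CPM, so that the groups nearly touched (log2 fold change -0.43 ± 0.104 SE, adjusted *P*-value 0.0184). Its sign was opposite to that of *Itgb1*, whose product it binds. By edgeR *Itgb1* alone of the pair passed. *Itgb1bp2* passed as lower by DESeq2, as above, and in the joint fit of 32 libraries (edgeR, adjusted *P*-value 0.00478). *Itgb5* stood in the 4 WT libraries at 34.4, 45.1, 46.4 and 50.0 CPM and in the 4 KO libraries at 62.4, 52.2, 58.0 and 58.1 CPM, without overlap (log2 fold change 0.40, adjusted *P*-value 0.0339).

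*Itga5*, the fibronectin receptor chain, stood in the 4 WT libraries at 29.7, 29.9, 32.1 and 27.6 CPM and in the 4 KO libraries at 44.8, 43.8, 44.0 and 30.0 CPM. KO replicate 4 lay among the WT libraries and the other 3 KO libraries were above them all. Without that replicate the log2 fold change was 0.58 with an adjusted *P*-value of 0.00329, against 0.46 and 0.0295 with it. *Itga6* passed without WT P21 replicate 4 (adjusted *P*-value 0.00544) and *Itgb1bp2* without WT P21 replicate 3 (0.00767). *Itga3* ran from 8.87 to 12.8 CPM in WT and from 7.45 to 9.61 CPM in KO (-0.43, adjusted *P*-value 0.0418). *Itga1* ran from 72.2 to 116 CPM in WT and from 45.3 to 73.4 CPM in KO (-0.50, 0.0877). For both the groups overlapped. In all, 6 of the 9 genes had groups apart at P21, against 24.7% of all genes tested, and the median over the 9 was 0.40 (all genes 0.01).

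**Figure D2:**
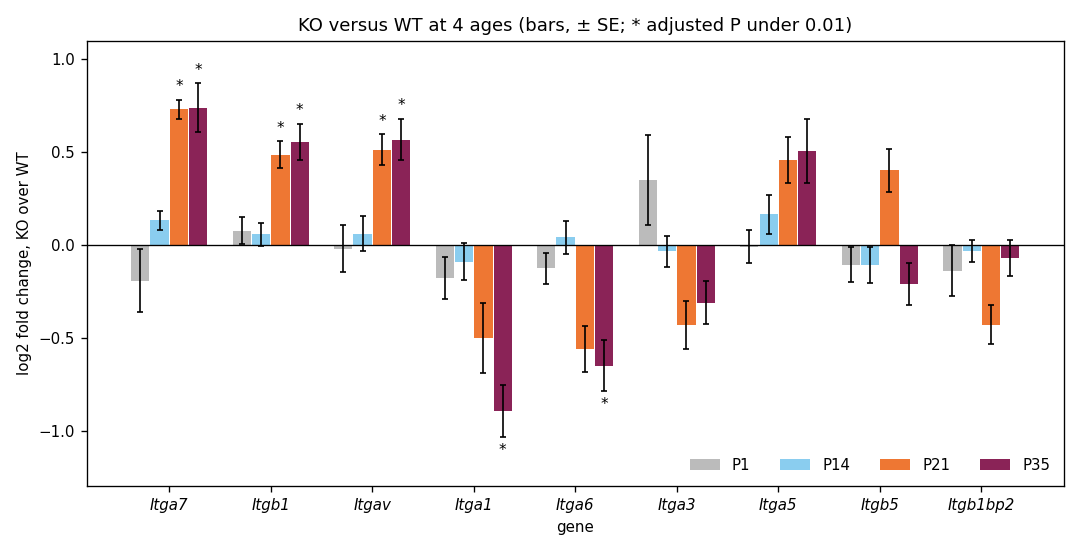
Log2 fold change of KO over WT for each gene at P1, P14, P21 and P35 (bars, ± SE of the edgeR fit, *n*=4 mice per genotype); stars mark adjusted *P*-values under 0.01. Stars appear at P21 and P35 on *Itga7*, *Itgb1* and *Itgav*, whose bars point up, and at P35 alone on *Itga1* and *Itga6*, whose bars point down.

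At P35 the 3 genes that passed as higher in KO at P21 by edgeR did so again, and 2 further α chains passed as lower. Of the 9 genes, 5 passed, against 24.5% of 15595 genes: *Itga7*, *Itgb1* and *Itgav* rose (12% of all genes passed as higher) and *Itga1* and *Itga6* fell (12.5% as lower). *Itga7* stood in the 4 WT libraries at 114, 124, 95.2 and 150 CPM and in the 4 KO libraries at 175, 200, 215 and 203 CPM, with no overlap but more spread than at P21 (log2 fold change 0.74 ± 0.132 SE, adjusted *P*-value 0.0021). *Itgb1* stood in the 4 WT libraries at 393, 438, 384 and 480 CPM and in the 4 KO libraries at 560, 604, 663 and 622 CPM. Every KO library was again above every WT library (log2 fold change 0.56 ± 0.0955 SE, adjusted *P*-value 0.00171). *Itgav* stood in the 4 WT libraries at 65.0, 64.4, 61.5 and 74.1 CPM and in the 4 KO libraries at 80.1, 89.4, 114 and 103 CPM, and these groups too were apart (log2 fold change 0.57 ± 0.112 SE, adjusted *P*-value 0.00348).

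*Itga1*, the collagen and laminin receptor chain, stood in the 4 WT libraries at 51.2, 64.8, 76.8 and 76.9 CPM and in the 4 KO libraries at 37.5, 32.9, 31.2 and 41.0 CPM at P35. All KO libraries were below all WT libraries: *Itga1* fell by 46.2% (log2 fold change -0.89 ± 0.141 SE, adjusted *P*-value 0.00109). *Itga6* stood in the 4 WT libraries at 57.3, 87.0, 85.3 and 85.8 CPM and in the 4 KO libraries at 49.2, 55.4, 44.0 and 48.9 CPM. WT replicate 1 was the lowest of its group and close to the highest KO library, though the groups did not overlap. *Itga6* fell by 36.3% (log2 fold change -0.65 ± 0.137 SE, adjusted *P*-value 0.00465). *Itga7*, *Itga1* and *Itga6* were DEGs (3 of 9, against 16% of all genes), and 5 of the 9 genes had groups apart (39.6% of all genes). The median over the 9 was -0.07 (all genes 0.04).

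The calls of *Itga6* and *Itgav* at P35 depended on single libraries. The adjusted *P*-value of *Itga6* was 0.0122 without KO P35 replicate 1, 0.0158 without KO replicate 3, 0.0121 without KO replicate 4, and 0.0145, 0.0138 and 0.0149 without WT P35 replicate 2, 3 and 4. That of *Itgav* was 0.0122 and 0.0138 without KO P35 replicate 3 and 4, and 0.011, 0.0127 and 0.0123 without WT P35 replicate 1, 2 and 3. *Itga7*, *Itgb1* and *Itga1* passed in each of the 8 fits that left out 1 library at P35.

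The remaining 4 genes did not pass at P35. *Itga5* stood in the 4 WT libraries at 14.8, 21.0, 20.2 and 24.4 CPM and in the 4 KO libraries at 26.4, 34.9, 21.9 and 29.1 CPM, overlapping between WT replicate 4 and KO replicate 3 (log2 fold change 0.51 ± 0.171 SE, adjusted *P*-value 0.0394). *Itgb5*, above WT at P21, stood in the 4 WT libraries at 82.1, 72.4, 72.6 and 67.3 CPM and in the 4 KO libraries at 52.8, 75.4, 60.7 and 60.8 CPM at P35 (log2 fold change -0.21, adjusted *P*-value 0.158). *Itga3* had a log2 fold change of -0.31 (adjusted *P*-value 0.0556), and *Itgb1bp2* one of -0.07 (0.577), with 216 to 230 CPM in WT and 180 to 245 CPM in KO.

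Several values depended on the scaling. With libraries scaled by their totals instead of TMM, the median over all genes moved at P35 from 0.04 to 0.44 (log2) and at P21 from 0.01 to 0.20. On that scale *Itga7*, *Itgb1* and *Itgav* were still higher in KO at both ages, whereas *Itga1* (log2 fold change -0.50, adjusted *P*-value 0.0113) and *Itga6* (-0.25, 0.167) were lower in KO at P35 without passing. *Itgb1bp2* was then higher in KO at P35 (log2 fold change 0.33, adjusted *P*-value 0.00732), the reverse of its direction under TMM, and *Itgb5* (0.20) and *Itga3* (0.09) also changed sign at P35. Mitochondrially encoded genes took 12.4% to 17.9% of the counts in WT at P35 and 10.3% to 10.5% in KO, and their part in the scaling was not tested.

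At P21 and P35, *Itga1* and *Itga6* were low in libraries low in endothelial markers. The 6 endothelial markers (*Pecam1*, *Cdh5*, *Kdr*, *Tie1*, *Tek* and *Vwf*), none at 0 in any group, summed to 626 to 947 CPM in WT and 501 to 592 CPM in KO at P21, and to 387 to 685 CPM in WT and 328 to 398 CPM in KO at P35. At P35, 3 of the 6 passed by edgeR as lower in KO (12.5% of all genes) and 0 as higher. At P21 0 of the 6 passed by edgeR (3.39% of all genes as lower), and 5 of the 6 were at an unadjusted *P*-value under 0.05. DESeq2 called 4 of the 6 lower at both ages. The unadjusted and DESeq2 counts have no share over all genes beside them. Many genes were under 0.05 at P21, where *Itga1* (unadjusted *P*-value 0.0242, edgeR) ranked 4190 of 15179. WT P35 replicate 1, low in *Itga6* and *Itga1*, was also the WT library lowest in these markers at P35, with 387 CPM. Per 1000 CPM of endothelial markers, a ratio computed after the values were seen, *Itga6* was at 125 to 148 CPM in WT and 123 to 148 CPM in KO at P35, and at 115 to 128 CPM in WT and 110 to 118 CPM in KO at P21, so that the genotypes overlapped at both ages. *Itga1* was at 107 to 132 CPM in WT and 87.97 to 103 CPM in KO at P35 on the same scale, with the KO libraries below the WT libraries. At P21 it was at 96.5 to 123 CPM in WT and 90.5 to 131 CPM in KO, and the genotypes overlapped. At the younger ages *Itga6* did not keep to these markers: per 1000 CPM of them it was at 169 to 201 CPM in WT at P1 and 88.5 to 99.7 CPM at P14. Low sums in KO were not particular to endothelial markers. Pericyte and smooth muscle markers summed to 1134 to 1280 CPM in WT and 860.5 to 1070 CPM in KO at P21. At P35 they summed to 1011 to 1444 CPM in WT and 773 to 909 CPM in KO, without overlap at either age. No ratio to that sum was computed. The part of either marker difference in the fall of *Itga1* or *Itga6* was not tested. In whole muscle, fewer cells of a type and less RNA per cell cannot be told apart.

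**Figure D3:**
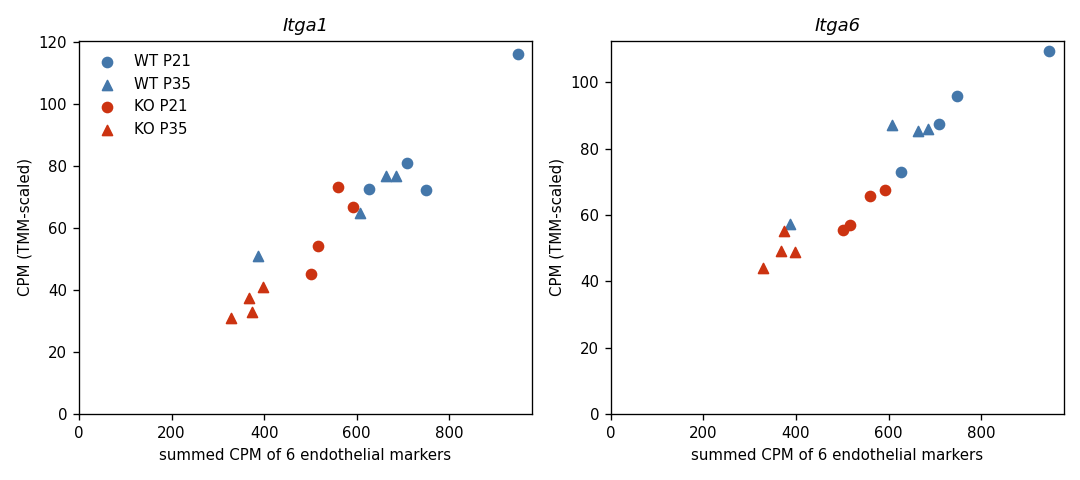
CPM of *Itga1* (left) and *Itga6* (right) against the summed CPM of 6 endothelial markers, 1 point per mouse, for WT (blue) and KO (red) at P21 (circles) and P35 (triangles). KO points lie at 328 to 592 CPM of marker sum and the WT points at 387 to 947 CPM. The WT P35 library at 387 CPM has a marker sum within the range of the KO P35 points (328 to 398 CPM). It lies above those points, at 51.2 CPM against 31.2 to 41.0 CPM for *Itga1* and 57.3 CPM against 44.0 to 55.4 CPM for *Itga6*.

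The genes most like *Itga7*, *Itga1* and *Itga6* were found by Pearson's *r* over the 32 libraries of log2 CPM centred within age, among 18583 genes. The genotype difference itself is shared by the points, so *r* is a description only. *Itga7* was followed most closely by *Sync* (syncoilin, a muscle intermediate filament protein; *r*=0.948), the unnamed transcript *Gm26722* (0.933) and *Hspb8* (a small heat shock protein; 0.93). *Itga1* was followed by *Dach1* (a transcription cofactor; 0.95), *Cdh5* (VE-cadherin of endothelial junctions; 0.924) and *Nrp1* (a co-receptor for VEGF and semaphorins; 0.922). *Itga6* was followed by *She* (an SH2-domain adaptor; 0.952), *Cavin2* (a caveolar coat protein; 0.936) and *Nrp1* (0.932). Among the members, *Itga1* and *Itga6* had an *r* of 0.884, *Itga7* and *Itgb1* of 0.865 and *Itgav* and *Itgb1* of 0.848, whereas *Itga6* and *Itgb1* had -0.715. *Itgb1bp2* had -0.507 with *Itgb1*.

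The α chains were also described as parts of their sum. Of the summed level per kb of the 6 α chains, *Itga7* made up 34.6% ± 2.94 in WT and 47.1% ± 2.36 in KO at P21, and 38.0% ± 4.24 in WT and 51.1% ± 1.81 in KO at P35. The share of *Itga6* was 23.1% ± 2.35 in WT and 12.9% ± 0.989 in KO at P21, and 22.3% ± 3.16 and 11.5% ± 1.30 at P35. That of *Itga1* was 10.5% ± 1.81 and 6.09% ± 0.998 at P21, and 9.26% ± 1.37 and 4.03% ± 0.623 at P35. *Itgav* made up 15.8% ± 1.33 in WT and 18.7% ± 2.10 in KO at P35. These shares restate the levels above as parts of a whole, and no test was run on them. They depend on the length used: per kb of coding sequence, *Itga1* made up 17.5% in WT and 8.09% in KO at P35 and 19.9% and 12.2% at P21, and *Itga7* 32.4% and 46.3% at P35. Per kb of the longest transcript, *Itga7* made up 42.6% and 57.6% at P35. With each length the *Itga7* share was higher, and the *Itga1* share lower, in KO at P35.

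**Figure D4:**
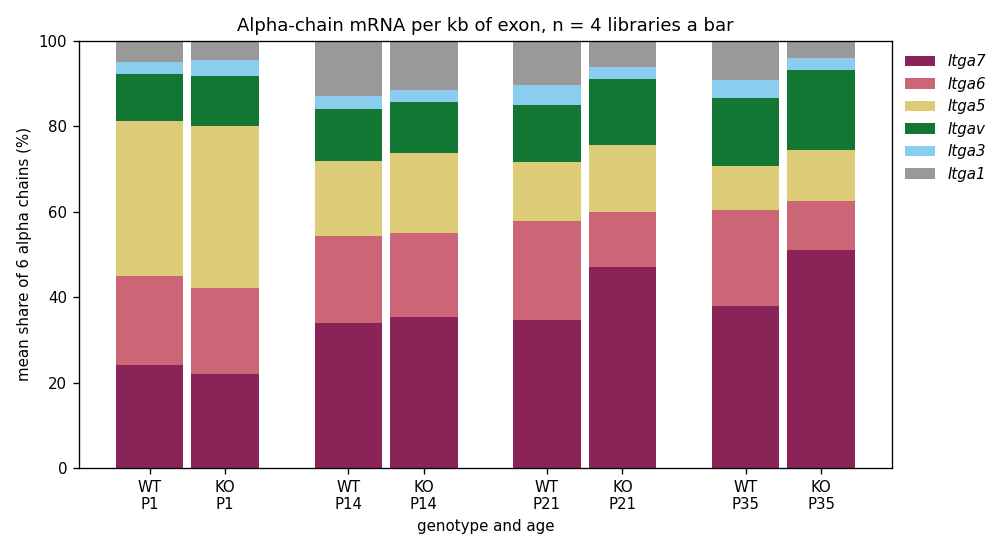
Mean share of each α chain in the summed CPM per kb of exon of the 6 α chains, for WT and KO at 4 ages (*n*=4 mice a bar, percent). The *Itga5* share shrinks from 36.2% to 10.4% in WT between P1 and P35, and the *Itga7* share is 51.1% in KO against 38.0% in WT at P35.

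WT muscle was also compared between ages. From P1 to P14, 4 of the 9 genes passed (70.5% of 17435 genes). *Itga1* rose from 42.8, 46.1, 42.4 and 43.6 CPM to 108, 116, 93.1 and 95.1 CPM (log2 fold change 1.23 ± 0.0784 SE, adjusted *P*-value 6.21e-07). *Itga5* fell from 75.2, 86.1, 87.3 and 87.2 CPM to 38.2, 43.4, 33.3 and 34.2 CPM (-1.18 ± 0.0913 SE, adjusted *P*-value 2.01e-06). Both changes left the ages far apart. *Itgb5* fell (log2 fold change -0.53, adjusted *P*-value 0.000435) and *Itga7* rose (0.35, 0.00142) less.

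Scaling bore on this step: by library totals the median over all genes from P1 to P14 was -0.85 (log2) against -0.08 under TMM, and *Itga7* then had a negative value of -0.42 (adjusted *P*-value 0.000657). Relative to that median *Itga7* was higher on both scales. *Itgb1* was level under TMM (log2 fold change 0.03, adjusted *P*-value 0.736), at 420 to 476 CPM at P1 and 449 to 478 CPM at P14. Endothelial markers summed to 453 to 503 CPM in WT at P1 and 719 to 879 CPM at P14, and their part in the rise of *Itga1* was not tested.

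From P14 to P21, 1 of 9 genes passed in WT (9.93% of all), *Itga3*, from 7.09, 7.64, 8.21 and 7.44 CPM to 12.8, 12.4, 11.6 and 8.87 CPM (log2 fold change 0.58 ± 0.118 SE, adjusted *P*-value 0.00849). WT P21 replicate 4 lay nearest to the P14 libraries. From P21 to P35, 1 of 9 passed (4.77% of all), *Itgb5*, from 34.4, 45.1, 46.4 and 50.0 CPM to 82.1, 72.4, 72.6 and 67.3 CPM (0.73 ± 0.122 SE, adjusted *P*-value 0.00659). Both groups were apart, but each call was lost in 7 of the 8 fits that left out 1 library, with adjusted *P*-values up to 0.0323 for *Itga3* and 0.0199 for *Itgb5*. *Itga5* was lower again at P35 than at P21 (-0.59, adjusted *P*-value 0.0193) without passing. Successive steps share the libraries of the middle age, and the same WT libraries serve the comparisons with KO. *Itgb5* in KO was above WT at P21, before the rise in WT, and overlapped with it at P35 (interaction -0.63, adjusted *P*-value 0.0323).

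Whether the KO effect itself changed with age was tested as an interaction in a fit of all 32 libraries. From P14 to P35, 3 of the 9 genes passed (8.53% of 18583 genes): the effect on *Itgb1* rose by 0.47 ± 0.0998 on the log2 scale (SE, adjusted *P*-value 0.00155), and the effects on *Itga6* (-0.72 ± 0.168 SE, adjusted *P*-value 0.0036) and *Itga1* (-0.83 ± 0.218 SE, adjusted *P*-value 0.00879) fell. Without KO P35 replicate 3, *Itgb1* was the only 1 of the 9 to pass, with adjusted *P*-values of 0.0114 for *Itga6* and 0.0242 for *Itga1*. The call of *Itga1* was lost in 19 of the 32 fits that left out 1 library. Scaled by library totals, *Itga1* (-0.49, adjusted *P*-value 0.122) and *Itga6* (-0.37, 0.157) did not pass, and *Itgb1* (0.82, 4.6e-05) did. *Itga7* (0.58, adjusted *P*-value 0.0205) and *Itgav* (0.48, 0.0354) did not pass.

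In the steps between neighbouring ages 0 of the 9 passed by edgeR: between P1 and P14 (0.0161% of all genes), between P14 and P21 (0.425%) or between P21 and P35 (0.463%). Between P14 and P21 the effect on *Itgb1* (0.42, adjusted *P*-value 0.0277) came nearest to the threshold. Those on *Itga6* (-0.61, 0.0623) and *Itga7* (0.58, 0.0929) missed it too, and *Itga7* passed when only the 16 libraries of those ages were fitted (adjusted *P*-value 0.000779). At an unadjusted *P*-value under 0.05, the 3 steps gave 0, 6 and 2 of the 9 (6.46%, 12.9% and 17.4% of all genes). DESeq2 called 0, 1 and 0 of the 9, and the gene called was *Itgb1* (0.39, adjusted *P*-value 0.00191).

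The proximal promoters of 3 genes that changed are shown, *Itgb1* and *Itgav*, which rose together, and *Itga1*, which fell. RefSeq windows (GRCm38.p6) were at hand for 6 of the 9 genes (*Itgav*, *Itgb1*, *Itga3*, *Itga1*, *Itga5* and *Itgb5*), and the 250 bases before the start are printed 5′ to 3′ on the strand of the gene. They were searched on both strands for 5 motifs: the E-box CANNTG, the AP-1 site TGANTCA, the TEAD site CATTCC (or GGAATG), the GC box GGGCGG (or CCGCCC) and the CArG box. Capitals mark matches. *Itgb1* lies at chr8:128685404-128685653 on the plus strand, *Itgav* at chr2:83724147-83724396 on the plus strand, and *Itga1* at chr13:115101965-115102214 on the minus strand:
Itgb1: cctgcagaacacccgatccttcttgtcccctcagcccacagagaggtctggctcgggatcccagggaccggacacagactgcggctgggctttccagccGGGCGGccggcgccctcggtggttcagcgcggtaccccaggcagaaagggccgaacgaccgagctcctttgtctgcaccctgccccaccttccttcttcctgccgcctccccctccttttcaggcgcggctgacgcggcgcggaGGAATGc
Itgav: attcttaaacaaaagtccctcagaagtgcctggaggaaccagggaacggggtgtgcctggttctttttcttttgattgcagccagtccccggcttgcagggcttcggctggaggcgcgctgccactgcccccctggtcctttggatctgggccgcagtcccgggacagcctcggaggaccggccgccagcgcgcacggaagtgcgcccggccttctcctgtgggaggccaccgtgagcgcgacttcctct
Itga1: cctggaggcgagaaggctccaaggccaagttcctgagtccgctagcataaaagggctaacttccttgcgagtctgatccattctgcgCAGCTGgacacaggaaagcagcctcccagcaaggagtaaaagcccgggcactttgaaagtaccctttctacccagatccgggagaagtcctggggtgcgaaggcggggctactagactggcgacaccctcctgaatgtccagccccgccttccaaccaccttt

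*Itgb1* held 1 GC box, beginning 151 bases before the start, and 1 TEAD site 7 bases before it. *Itgav* held none of the 5 motifs. *Itga1* held 1 E-box, beginning 163 bases before the start. Of 32851 promoter windows of the same length, 66.22% held an E-box, 32.74% a GC box, 12.64% a TEAD site, 6.75% an AP-1 site and 1.47% a CArG box. G and C made up 68.0% of the *Itgb1* window, 64.4% of *Itgav* and 57.6% of *Itga1*, against a median of 52.4%.

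By edgeR the adaptors inside the cell passed at or below the share of all genes. Of 25 adaptors and costamere proteins, 1 passed at P21 (higher), where 8.13% of all genes passed. At P35, 6 passed, 3 higher and 3 lower, where 24.5% of all genes passed. DESeq2 called 3 higher and 1 lower at P21, and 3 higher and 6 lower at P35, with no share over all genes given for its counts. The median log2 fold change was 0.01 at P21 and -0.04 at P35 (all genes: 0.01 and 0.04). *Csrp3*, the muscle LIM protein of the Z-disc and costamere, rose at P21 from 84.3 ± 35.0 to 304 ± 78.5 CPM (log2 fold change 1.85 ± 0.344 SE, adjusted *P*-value 0.00606) and at P35 from 75.7 ± 26.1 to 393 ± 319 CPM (2.405 ± 0.506 SE, 0.00474). At P35, *Tln2*, the talin of mature muscle, fell from 159 ± 17.9 to 85.9 ± 8.04 CPM (-0.86 ± 0.102 SE, adjusted *P*-value 0.000293), and *Lims2*, a PINCH partner of integrin-linked kinase, from 49.5 ± 14.9 to 24.7 ± 4.30 CPM (-0.98 ± 0.198 SE, 0.0039).

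Of 18 matrix ligands, 0 passed at P21 by edgeR (8 at an unadjusted *P*-value under 0.05, and 1 by DESeq2), where 8.13% of all genes passed. The unadjusted and DESeq2 counts of the ligands have no share over all genes beside them and are not read as a result. Many genes were under 0.05 at P21: *Itga1*, at an unadjusted *P*-value of 0.0242 (edgeR), ranked 4190 of 15179. At P35, 3 passed, 2 higher and 1 lower, where 24.5% of all genes passed, and DESeq2 called 2 higher and 5 lower. The laminin chain *Lama5* fell at P35 from 40.9 ± 6.43 to 25.9 ± 2.497 CPM (-0.64 ± 0.119 SE, adjusted *P*-value 0.00262), and *Thbs1* (thrombospondin 1; 1.81 ± 0.392 SE, 0.00541) and *Spp1* (osteopontin; 3.73 ± 0.807 SE, 0.00546) rose. *Spp1* differed widely between KO libraries, at 32.6 ± 29.2 CPM against 2.51 ± 2.04 CPM in WT. The median log2 fold change of the ligands was 0.05 at P21 and -0.17 at P35.

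Of the 19 other integrin genes, 17 were tested at P21 and P35, and 2 and 5 of them passed by edgeR, higher in KO, where 8.13% and 24.5% of all genes passed. DESeq2 called 4 higher and 1 lower at P21 and 5 higher and 1 lower at P35, with no share over all genes given for its counts. *Itga2b*, the platelet chain, rose from 0.657 ± 0.108 to 1.36 ± 0.215 CPM at P21 and from 0.757 ± 0.0762 to 1.95 ± 0.498 CPM at P35. *Itgax*, a leukocyte chain, rose at P21 from 0.426 ± 0.139 to 1.07 ± 0.233 CPM. At P35 *Itgam*, a myeloid chain, rose from 2.09 ± 0.385 to 4.70 ± 0.863 CPM (log2 fold change 1.198 ± 0.182 SE, adjusted *P*-value 0.000926), and *Itga9* from 14.9 ± 2.82 to 30.6 ± 5.16 CPM (log2 fold change 1.07 ± 0.164 SE, adjusted *P*-value 0.001). The 6 macrophage and leukocyte markers summed to 30.0 to 35.3 CPM in WT and 44.6 to 56.9 CPM in KO at P21, and to 30.0 to 37.6 CPM and 43.6 to 63.9 CPM at P35, with 4 and 3 of the 6 passing as higher; none was at 0, and their part in the rise of the leukocyte chains was not tested.

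Markers of the other cell types were counted the same way, where 8.13% of all genes passed by edgeR at P21 and 24.5% at P35. No share over all genes is given for DESeq2 counts, or for unadjusted *P*-values of KO against WT at P21 and P35. Many genes were under 0.05 at these ages: *Itga1* at P21 (unadjusted *P*-value 0.0242, edgeR) ranked 4190 of 15179 genes. *Itga3* at P35 (0.0238) ranked 6665 of 15595. Of 6 pericyte and smooth muscle markers 0 passed at P21 (4 at an unadjusted *P*-value under 0.05, 2 by DESeq2) and 2 were lower at P35, and of 6 satellite cell markers 2 were lower at P21 and 2 lower and 1 higher at P35. Of 6 fibroblast markers 1 passed as higher at both ages, 6 at P21 and 4 at P35 were under an unadjusted *P*-value of 0.05, and DESeq2 called 1 and 2 higher. The fibroblast markers summed to 2382 to 2933 CPM in WT and 2965 to 3958 CPM in KO at P21, without overlap, and to 1916 to 2290 CPM and 1956 to 3130 CPM at P35; none was at 0, and their part in the higher levels of *Itgb1*, *Itgav*, *Itgb5* and *Itga5* in KO was not tested. Of 6 Schwann cell and 6 tendon markers 0 passed at P21 or P35 by edgeR (0 and 1 at an unadjusted *P*-value under 0.05 at P21, 5 and 2 at P35), and DESeq2 called 2 Schwann cell markers and 1 tendon marker higher at P35. Of the keratinocyte markers 2 were tested at P21 and 3 at P35, and 1 was higher at each age. Of the myofibre markers, 0 passed at P21 by edgeR (4 at an unadjusted *P*-value under 0.05) and 1, *Acta1*, was lower at P35 (3 unadjusted), while DESeq2 called 2 and 3 of the 6 lower. They summed to 112500 to 169000 CPM in WT and 106800 to 121600 CPM in KO at P21, and to 91590 to 141800 CPM and 59480 to 84660 CPM at P35.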

How the data were processed

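The authors aligned paired-end reads of poly(A) RNA to GRCm38 with STAR 2.6.1 and deposited RSEM 1.2.22 expected counts per gene, per the labels, while the study's methods name HTSeq as the counter. Whether counting used strand is not given in the sources used here. The deposited counts were rounded (4.262% of values were not whole) and scaled by TMM. KO was compared with WT within each age, and WT with WT between ages, by the quasi-likelihood test of edgeR 4.0.16 in R 4.3.3 after filterByExpr. Tests were two-sided, and *P*-values were adjusted by Benjamini and Hochberg's method across the whole table. Interactions used 1 fit of 32 libraries. Genes passed at an adjusted *P*-value under 0.01, and DEGs also had a fold over 1.5. CPM values share 1 TMM scale. Symbols, lengths and coordinates came from GENCODE M21, and promoters from RefSeq. The script was tested on simulated data. Figures were drawn with matplotlib 3.10.9.

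The 9 genes and all lists were chosen with earlier results of these data known. Named from the lists of adaptors, ligands and other integrins were the 3 genes with the smallest adjusted *P*-values at P21 and at P35 among those that passed. The ratios to the endothelial marker sum were computed after the values had been seen. Replicate numbers come from the labels and mark different mice, with no animal named as shared. At P14 the deviations of all 4 same-numbered WT and KO libraries correlated (*r*=0.19 to 0.588), and the replicate block changed no call there; at the other ages they did not all exceed 0.1. No 2 libraries agreed within sampling noise. Reads carried no molecular identifiers, so the counts are of reads and not of molecules. Alternatives were DESeq2 1.42.0, RLE size factors, library totals, other filters, an adjusted *P*-value of 0.05, the replicate block, a joint fit and leaving out each library.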

Additional observations from a re-analysis of the deposited data

Results flagged for a closer look

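In 4 of 72 groups of 4 libraries, 1 library stood far from the other 3 by Dixon's test, where chance flags about 1 in 20 groups. *Itga5* was at 30.0 CPM in KO P21 replicate 4 and at 43.8 to 44.8 CPM in the other KO libraries, and at 75.2 CPM in WT P1 replicate 1 against 86.1 to 87.3 CPM. *Itga6* was at 57.3 CPM in WT P35 replicate 1 against 85.3 to 87.0 CPM. *Itgb1bp2* was at 400.1 CPM in WT P1 replicate 2 against 326 to 336 CPM.

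The KO effect differed between P14 and P35 by the interaction test for *Itga1* (-0.83 on the log2 scale, adjusted *P*-value 0.00879), *Itga6* (-0.72, 0.0036) and *Itgb1* (0.47, 0.00155).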

How the results depend on the processing

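Of the tests of single genes outside the fits that left out a library, 654 kept direction and side of the threshold, 33 passed where the reported test did not, 10 no longer passed and 32 changed sign. Scaled by library totals, 5 genes passed at P21 (4 DEGs), 8 in WT from P1 to P14 and 0 in WT from P21 to P35. DESeq2 called 6 at P21, 2 in WT from P14 to P21, 2 in WT from P21 to P35 and 1 for the KO effect from P14 to P21. At an adjusted *P*-value under 0.05, 8 passed at P21, 3 in WT from P14 to P21 and 2 in WT from P21 to P35. The joint fit of 32 libraries gave 5 at P21, and fits of the 16 libraries of P14 and P21 gave 1 for the KO effect. With the replicate block, 0 passed in WT from P14 to P21 and 0 from P21 to P35, *Itga6* passed at P21 (adjusted *P*-value 0.00588), and no other call changed. Whether equal numbers pair the WT and KO libraries is not given by the labels at any age. Leaving out 1 library gave 2 to 4 genes passed and 1 to 2 DEGs at P21, 3 to 5 passed and 2 to 4 DEGs at P35, 0 to 1 in WT from P14 to P21 and from P21 to P35, and 1 to 4 for the KO effect from P14 to P35. The cause of these shifts was not tested.

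Sign changes, as log2 values, were mostly of values near 0. By library totals they were *Itga5* 0.0166 and *Itgav* 0.0074 at P1, *Itga3* 0.0479 and *Itgb1bp2* 0.0544 at P14, *Itga3* 0.0923, *Itgb5* 0.1956 and *Itgb1bp2* 0.3299 at P35, *Itga3* -0.7401, *Itga7* -0.4157 and *Itgb1* -0.7413 in WT from P1 to P14, and *Itga7* -0.1253 and *Itgav* -0.0198 in WT from P14 to P21. For the KO effect they were *Itgb1* 0.0366 from P1 to P14, *Itga6* 0.1295 and *Itga7* 0.2292 from P21 to P35, and *Itga3* 0.0442, *Itgb5* 0.2125 and *Itgb1bp2* 0.2753 from P14 to P35. In WT from P1 to P14, *Itgav* was 0.0106 by DESeq2 and by RLE size factors and 0.0034 with the replicate block, *Itgb1* -2e-04 without a filter and -0.0665 with at least 10 counts in every library, and *Itga3* -0.0573 under that filter. The KO effect on *Itga7* from P21 to P35 was 0.0078 by DESeq2 and by RLE size factors, 0.0361 without a filter, 0.023 with at least 10 counts, 0.0098 with the replicate block and 0.0133 in 16 libraries, and from P1 to P14 *Itgb1* was 0.001 without a filter and *Itgb5* -0.0039 in 16 libraries.

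Over the fits that left out 1 library, KO against WT ran from -0.0607 to 0.0597 for *Itga5* and -0.1032 to 0.0729 for *Itgav* at P1, and from -0.0054 to 0.1101 for *Itga6* and -0.014 to 0.1106 for *Itgav* at P14. In WT, P1 to P14 gave -0.0779 to 0.3039 for *Itga3*, -0.0833 to 0.0914 for *Itgav* and -0.0044 to 0.0557 for *Itgb1*, and P21 to P35 gave -0.1448 to 0.0702 for *Itga7*. The KO effect from P1 to P14 ran from -0.0102 to 0.1669 for *Itga1*, -0.0372 to 0.0242 for *Itgb1* and -0.0732 to 0.0887 for *Itgb5*. From P21 to P35 it ran from -0.0895 to 0.1527 for *Itga5*, -0.1052 to 0.1172 for *Itga7* and -0.0263 to 0.1194 for *Itgav*, and from P14 to P35 from -0.1496 to 4e-04 for *Itgb1bp2*.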
